A study of Mus musculus with 42 samples.

Results

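The tripartite motif (TRIM) proteins form one of the largest families of RING-type ubiquitin ligases, and the mouse genes that carry the Trim name and were measurable in bone-marrow-derived macrophages (BMDMs) are described here. The genes were chosen by name and by a minimum count: a protein-coding gene whose symbol starts with Trim followed by a digit, with at least 10 counts in at least 3 of the 42 libraries. Of the 37310 rows of the count table, 67 carried such a symbol and 39 met the count minimum, and these 39 are called the Trim genes below. The minimum used the counts of all groups together, so a gene could meet it through the group in which it was high. Trim30b, just inside with 7 libraries, did so mainly through the libraries treated with lipopolysaccharide for 24 h, and Trim46 met it in 9 libraries. Just outside was Trim66, which reached 10 counts in 2 libraries and had the highest mean of the 28 genes left out, 2.52 counts per library. Of those 28 genes, 3 had no count in any library, Trim31, Trim52 and Trim80.

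The BMDMs came from wild-type mice (libraries labelled WT) and from littermates with a myeloid deletion of Irf5 (libraries labelled KO), an interferon regulatory factor that acts downstream of Toll-like receptors. The deletion crossed floxed Irf5 alleles with Cre driven from the Lyz2 locus, which is active in myeloid cells. The extent of the deletion in these cells was not measured here. For each genotype there were 7 conditions with 3 libraries each: Control cells at 0, 2 and 24 h, cells given the fatty acid palmitate for 2 or 24 h, and cells given lipopolysaccharide (LPS), the bacterial ligand of Toll-like receptor 4, for 2 or 24 h. Nothing in the labels says that the 3 libraries of a group came from separate mice or cultures, so p-values measure the spread between these libraries, which may be technical.

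A TRIM protein carries a RING domain that recruits a ubiquitin-loaded E2 enzyme, then B-box zinc fingers and a coiled coil through which it pairs, and in most members a C-terminal domain that binds the target. In macrophages several members attach ubiquitin to sensors and adaptors of viral and bacterial RNA and DNA, others restrict retroviral capsids, and a further group, the TIF1 proteins, works on chromatin. Many members of the immune branch are themselves induced by interferon, and in the mouse a run of them on chromosome 7 has expanded by duplication, the Trim5, Trim12, Trim30 and Trim34 genes.

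Total counts were 2848793 to 7743442 per library, and the Trim genes together took 3990 to 16107 of them. The shallowest libraries were both library 1 of LPS 2 h, with 2848793 counts (KO) and 3091726 counts (WT). A count of 3 corresponded to 0.387 to 1.05 CPM (counts scaled to library size with TMM factors), which limits what could be seen for the lowest genes. All 39 Trim genes passed the expression filter of the test across 11624 genes, and 30 had 10 or more counts in every library. The label KO was not borne out by the counts of the targeted gene, since Irf5 was higher, not lower, in the libraries labelled KO (log2 difference 0.27 ± 0.02 over the 7 conditions, adjusted p = 8.09e-14), while Lyz2, whose locus carries the Cre, fell by 0.51 to 1.11 on the log2 scale. Counts per gene do not separate the floxed exons from the rest of Irf5, so every genotype difference below is a difference between labels. The macrophage genes Adgre1, Csf1r, Cd68, Itgam, Mertk and Fcgr1 were present in every group, with a summed level of 4710 to 8747 CPM. Markers of T or NK cells and of erythroid cells summed to at most 2.60 and 0.519 CPM. Other lists were higher, with granulocyte genes at up to 451 CPM, B cell genes 58.6 and dendritic genes 12.2 CPM. Fibroblast genes were uneven, from 0.777 to 306 CPM among KO palmitate 2 h libraries, and at most 58.7 CPM in any WT group.

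The chromosome 7 cluster is where the family's response to LPS at 24 h was largest, so its start regions are shown first. On mm10 (GRCm38) 9 Trim genes lie in one run on chromosome 7, in the order Trim6, Trim34a, Trim5, Trim12a, Trim12c, Trim30b, Trim30c, Trim30a and Trim30d, from position 104218793 to 104507849. Trim6 and Trim34a are on the plus strand and the others on the minus strand. A promoter window of 300 bases (250 before to 50 after the start, RefSeq, GRCm38.p6) was at hand for 30 of the 39 Trim genes, and none was used for Trim8, Trim35, Trim33, Trim14, Trim3, Trim65, Trim11, Trim36 and Trim16. An interferon-stimulated response element (ISRE, GAAA, any 2 bases and GAAA, on either strand) was found in the windows of 9 of the 30 genes (30%) and of 6 of the 9 cluster genes (66.7%), against 3.99% of all 27025 genes with a window and 4.04% of those tested here. A GAS element (TTCNNNGAA, its own reverse complement) stood in 3 of 30 (10%) against 9.55% of all genes, and a kappaB motif in 3 of 30 (10%) against 9.55%, so neither was far from its background. A match of letters is a description of the window and not a bound site.

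The stretches below hold the ISRE matches of cluster genes whose start region shows how alike the duplicates are, and the kappaB match of Trim13, the gene with the largest mean rise at 2 h. Bases in capitals are the motif, and each is written 5′ to 3′ on the strand of the gene. Trim30a is chr7:104465194-104465273, Trim30d chr7:104507850-104507929, Trim5 chr7:104288107-104288186 and Trim12c chr7:104353350-104353429, all on the minus strand and ending at the base before the start. Trim30c, chr7:104400779-104400858 on the minus strand, holds a GAS and no ISRE. Trim34a (chr7:104244457-104244486, plus) and Trim12a (chr7:104315466-104315495, minus) show the first 30 bases after the start, where their match lies. Trim21, chr7:102565449-102565478 on the minus strand outside the cluster, and Trim26, chr17:36836966-36837025 on the plus strand, hold overlapping ISRE matches, and Trim13 is chr14:61598182-61598231 on the plus strand.
Trim30a: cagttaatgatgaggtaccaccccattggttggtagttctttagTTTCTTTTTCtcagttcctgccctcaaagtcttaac
Trim30d: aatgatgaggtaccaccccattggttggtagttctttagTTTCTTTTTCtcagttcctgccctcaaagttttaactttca
Trim5: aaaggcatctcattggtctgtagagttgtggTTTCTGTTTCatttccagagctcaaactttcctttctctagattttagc
Trim12c: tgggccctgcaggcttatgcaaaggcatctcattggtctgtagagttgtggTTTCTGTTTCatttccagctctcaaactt
Trim12a: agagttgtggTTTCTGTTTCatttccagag
Trim34a: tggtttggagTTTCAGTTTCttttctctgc
Trim30c: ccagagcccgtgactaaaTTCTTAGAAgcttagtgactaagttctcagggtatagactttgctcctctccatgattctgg
Trim21: ctctgagagGAAACTGAAAGTGAAAtttgg
Trim26: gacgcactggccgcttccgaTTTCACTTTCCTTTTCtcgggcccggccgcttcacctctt
Trim13: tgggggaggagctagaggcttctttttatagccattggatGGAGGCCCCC

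Aligned on the ISRE over 50 bases, Trim30a and Trim30d were identical at 50 of 50 positions, and so were Trim5 and Trim12a. Trim12c matched each of the latter pair at 48 of 50, while Trim30a matched Trim5 at 28 of 50. The same likeness runs through the transcripts and bears on the counts. Of the 100-base windows of Trim34a 21% also occur in another gene, Trim34b. For Trim5 the share was 11.7%, for Trim12c 8.05%, for Trim30d 4.57%, for Trim30a 4.41% and for Trim12a 2.87%, so the split of reads within these pairs is uncertain. Outside the cluster Trim47 overlaps Trim65 on the same strand over 8.23% of its exon bases, and Trim14 overlaps Nans on the opposite strand over 31.3%. Trim46 overlaps Krtcap2 on the opposite strand over 6.30%, with a mean of 6.02 counts against 105 for Krtcap2. Trim41 overlaps Rack1 on the opposite strand over 0.883%, with 184 counts against 2498 for Rack1. The strand setting of the counting was not stated. Reads of Trim14 and Nans, Trim46 and Krtcap2, and Trim41 and Rack1 therefore cannot be told apart there.

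Trim8, reported to act on cytokine and NF-kappaB signalling, had the highest level per length of the family, 62.6 CPM per kb of exon as the mean of 42 libraries. Trim25, which ubiquitinates the RNA sensor RIG-I, followed with 36.8 CPM per kb. Trim28, the corepressor of KRAB zinc finger proteins, had 27.8 and Trim30a, reported to restrain Toll-like receptor signalling, 27.1 CPM per kb. The lowest was Trim30b with 0.141 CPM per kb. After LPS for 24 h the order changed in libraries labelled WT, where Trim30a led with 86.5 CPM per kb, ahead of Trim8 with 70.7 and Trim25 with 65.6. In Control 24 h libraries of that label Trim30a had 14.5 CPM per kb, in sixth place, behind Trim8 (61.2), Trim28, Trim25 (26.8), Trim35 (18.4) and Trim44 (14.9).

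At 2 h, LPS changed a mixed set of Trim genes. In the chromosome 7 cluster 1 of 9 genes was called higher in the WT libraries and 2 in the KO libraries. Trim13, an E3 ligase of the endoplasmic reticulum membrane, and Trim36, a microtubule-associated COS-box member, rose most, together with the cluster gene Trim30c, which started near the limit of detection. Trim65, an E3 ligase for the RNA sensor MDA5, and Trim16, which takes part in the response to damaged lysosomes, fell most. Of the 39 genes, 7 were higher (17.9%) and 5 lower (12.8%) in libraries labelled WT, where 14% and 9.10% of all genes tested were called. In libraries labelled KO 8 were higher (20.5%) and 6 lower (15.4%), against 14.7% and 9.16%. The median log2 fold change of the Trim genes was −0.14 (WT) and 0.03 (KO), beside −0.01 for all genes in both. These shares were near the background, and the calls below are from edgeR's quasi-likelihood test with Benjamini-Hochberg adjustment.

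Trim13 had 4.65, 5.46 and 5.19 CPM in the 3 Control 2 h libraries labelled WT and 28.3, 29.2 and 26.7 CPM after LPS. The libraries labelled KO gave 4.34, 5.19 and 6.11 CPM and then 31.9, 30.6 and 25.7 CPM. The groups did not overlap, and the log2 fold changes were 2.45 ± 0.23 (adjusted p = 9.23e-13) and 2.48 ± 0.23 (6.48e-13). Trim36 went from 7.36, 6.29 and 6.22 CPM to 31.1, 34.3 and 28.2 CPM in the WT libraries and from 7.78, 8.06 and 5.94 to 45.6, 39.1 and 37.6 CPM in the KO libraries. Every LPS library lay above every Control library, with log2 fold changes of 2.24 ± 0.25 and 2.48 ± 0.24. Trim30c, the member of the cluster whose stretch above holds a GAS and no ISRE, had 0.774, 0.827 and 1.63 CPM against 4.65, 6.78 and 4.27 CPM (WT), and 1.99, 1.25 and 1.70 against 6.45, 10.3 and 8.65 CPM (KO). Its log2 fold changes were 2.23 ± 0.40 and 2.38 ± 0.35, on few counts.

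Trim21, the cytosolic antibody receptor, had 17.4, 18.4 and 20.2 CPM in WT Control libraries and 34, 42.3 and 31.4 CPM after LPS, and in the KO libraries 20.6, 20.9 and 17.5 and then 37.2, 42.1 and 51.3 CPM. The rise was 0.94 ± 0.14 and 1.16 ± 0.14 on the log2 scale. Trim25 rose from 157, 183 and 160 to 224, 260 and 240 CPM and from 130, 138 and 142 to 232, 245 and 255 CPM, which is 0.54 ± 0.07 and 0.84 ± 0.07. Trim56, which promotes STING signalling, rose from 45.1, 48.1 and 50.1 to 88.4, 78.1 and 83 CPM in the WT libraries and from 59.5, 64.5 and 51.6 to 69.1, 78.4 and 80.2 CPM in the KO libraries. Its log2 fold change was 0.79 ± 0.10 and 0.39 ± 0.10, and the second call was lost without the third KO Control library (0.29). Trim26, with an overlapping ISRE pair above, rose from 52.6, 52.4 and 48.6 to 69.4, 70.1 and 66.3 CPM (WT, log2 0.42) and from 48.3, 43.7 and 47.5 to 82, 59.6 and 66.8 CPM (KO, 0.56). Trim30a was called in the KO libraries alone (log2 0.30 ± 0.10, adjusted p = 0.0214), lost without any 1 of 3 libraries.

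Among the genes that fell, Trim65 went from 25.7, 20.8 and 26.7 to 8.94, 7.81 and 11 CPM in the WT libraries and from 22.8, 22 and 18.8 to 7.59, 8.31 and 11.2 CPM in the KO libraries. Its log2 fold changes were −1.39 ± 0.17 and −1.20 ± 0.17. Trim16 went from 6.58, 6.29 and 7.71 to 2.86, 3.08 and 4.27 CPM and from 7.42, 6.45 and 6.96 to 2.28, 1.82 and 2.81 CPM, a fall by 0.97 and 1.58 on the log2 scale. Trim47, a RING ligase next to Trim65 on chromosome 11, fell from 30.2, 29.3 and 26.5 to 19.7, 16.6 and 13.4 CPM (WT) and from 32, 27.7 and 28.5 to 15.6, 16.2 and 11.5 CPM (KO). Trim32, an NHL-domain ligase linked to muscle disease, fell from 15.9, 18.5 and 16.7 to 9.66, 12.9 and 8.54 CPM and from 17.9, 20.1 and 18.5 to 10.2, 13 and 9.30 CPM. Trim8 fell from 234, 250 and 245 to 182, 171 and 163 CPM in the WT libraries and from 239, 215 and 225 to 221, 173 and 172 CPM in the KO libraries. Its KO libraries overlap with Control through LPS library 1 (221 CPM), the shallowest library of the series. The KO call (log2 −0.28 ± 0.08) was lost without LPS library 2 or 3. Trim59 was called lower in the KO libraries alone (−1.17 ± 0.34), and lost there without LPS library 2.

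At 24 h most of the chromosome 7 cluster rose together. Of its 9 Trim genes 8 were called higher in both genotypes, Trim6 being the exception. The median log2 fold change over the 9 was 2.42 (WT) and 2.27 (KO), against 0.13 and 0.30 at 2 h. Trim30b, among the 8, met the count minimum mainly through these LPS 24 h libraries. Its call was therefore partly set by that choice, here and in every later count that uses those libraries. In all, 15 Trim genes were higher (38.5%) and 7 lower (17.9%) in libraries labelled WT, where 19.6% and 19.9% of all genes were called. In libraries labelled KO 16 were higher (41%) and 6 lower (15.4%), against 19.9% and 21%. The median of the Trim genes was 0.21 and 0.27 on the log2 scale, beside −0.01 for all genes in both genotypes. The level of a gene in bulk RNA cannot tell more RNA per cell from more cells that make it.

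**Figure D1:**
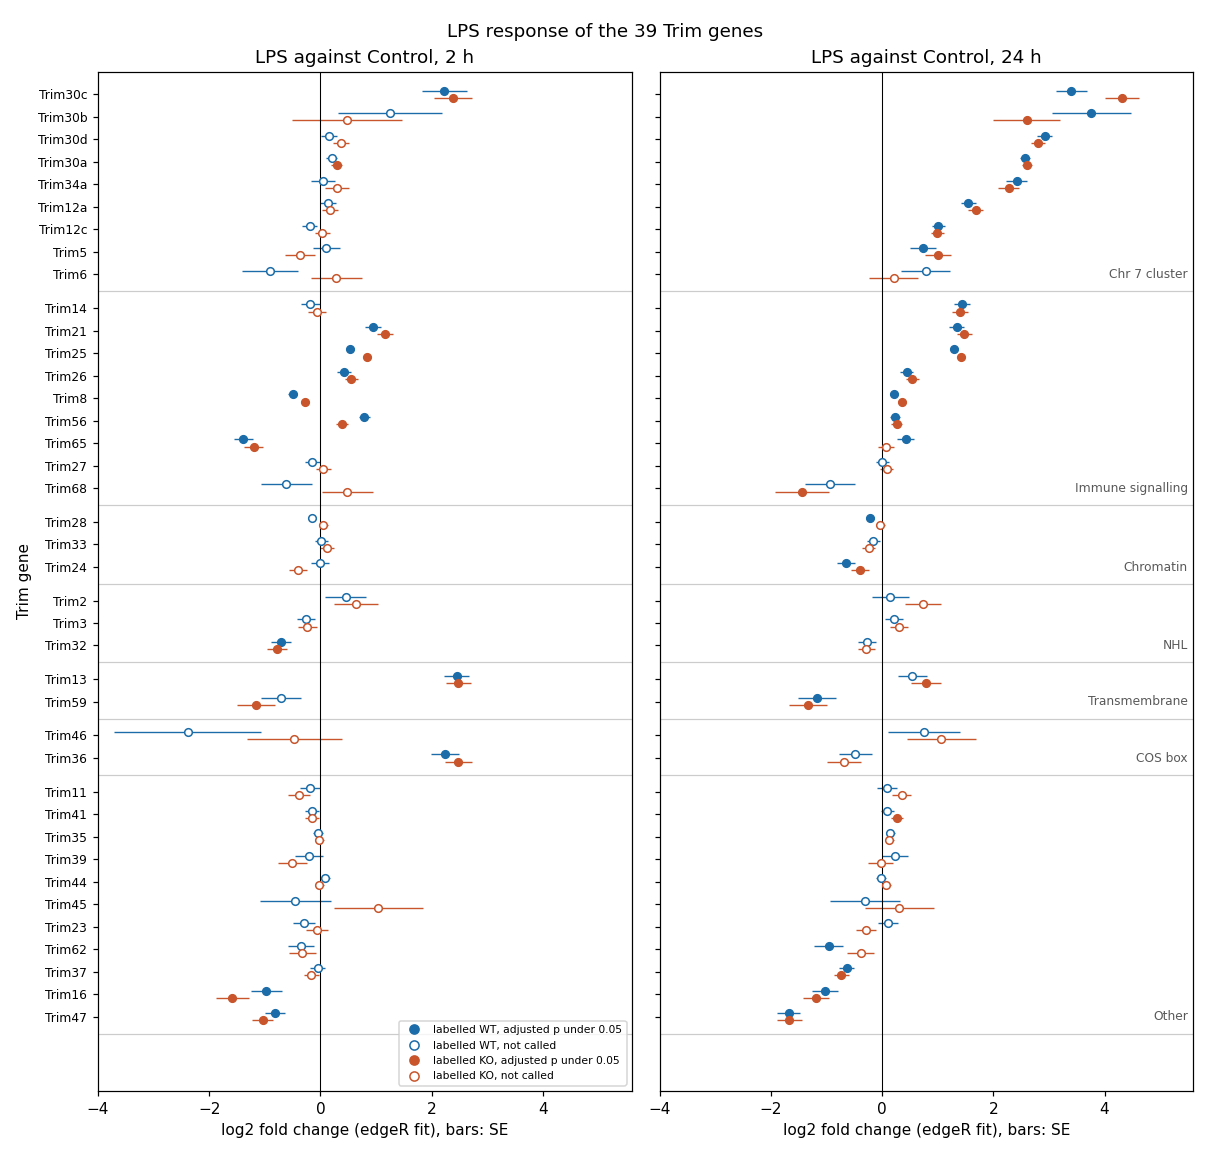
Log2 fold change (x axis, edgeR fit, bars are SE) of LPS against Control for the 39 Trim genes (y axis, grouped by role) at 2 h and 24 h, in libraries labelled WT and KO, with 3 libraries per group. All cluster genes but Trim6 were called higher at 24 h, with Trim30c at 3.41 and 4.32, while at 2 h Trim13 and Trim36 lie farthest right.

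Trim30a rose from 56.7, 61 and 60.8 to 377, 326 and 363 CPM in the WT libraries and from 60.6, 56.1 and 63.9 to 362, 383 and 358 CPM in the KO libraries, log2 fold changes of 2.57 ± 0.09 and 2.61 ± 0.09. Trim30d, whose start region equals that of Trim30a over the 50 bases aligned on the ISRE, went from 14.6, 14.6 and 22 to 139, 124 and 134 CPM and from 21.4, 21.7 and 19.96 to 154, 137 and 146 CPM. Its log2 fold changes were 2.92 ± 0.13 and 2.80 ± 0.13. Trim30c, which had risen at 2 h, rose further, from 3.93, 2.74 and 2.33 to 33.5, 21.3 and 37 CPM and from 1.49, 1.64 and 1.84 to 33.8, 35.7 and 32.5 CPM. Its fitted changes of 3.41 ± 0.29 and 4.32 ± 0.31 gave the largest mean of the 2 genotypes. Trim30b was at 0, 2 and 3 counts in the WT Control libraries and at 3, 3 and 7 counts in the KO libraries, and after LPS at 3.59, 3.64 and 5.82 CPM and 5.22, 4.86 and 4.39 CPM. Its fitted change of 3.76 ± 0.71 and 2.60 ± 0.60 rests on those few counts and depends on the prior count.

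Trim34a went from 5.61, 8.57 and 12.1 to 54.8, 44.5 and 48.7 CPM and from 11.7, 10.4 and 11.8 to 52.8, 58.8 and 52.4 CPM, with log2 fold changes of 2.42 ± 0.19 and 2.27 ± 0.18. Trim12a, which with Trim12c is a mouse relative of the capsid restriction factor TRIM5, went from 16.6, 16.3 and 20.3 to 54.4, 49.8 and 52.8 CPM and from 19.9, 14.4 and 16 to 54.6, 50.4 and 54.2 CPM. Its changes were 1.55 ± 0.13 and 1.68 ± 0.14. Trim12c changed by 1.01 and 0.99 and Trim5 by 0.74 ± 0.23 and 1.01 ± 0.24. The Trim5 call in the WT libraries was lost without LPS library 1 (0.57, adjusted p = 0.0811). Trim6 stood at 1.40 to 2.40 CPM in WT Control libraries and 2.74 to 5.05 CPM after LPS, and at 2.23 to 3.10 and 2.34 to 3.73 CPM in the KO libraries, where the ranges overlap. Of the 9 genes with an ISRE in the window, 8 were higher in both genotypes at 24 h (all but Trim2) and 2 at 2 h. Of the 21 without one 4 were higher at 24 h and 4 at 2 h. Of all genes tested 19.6% (WT) and 19.9% (KO) were called higher at 24 h, and 14% and 14.7% at 2 h. Several of the 8 are duplicates with near-identical start regions, and Trim8 and Trim14, also higher at 24 h, had no window. Whether the ISRE has a part in the response was not tested.

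**Figure D2:**
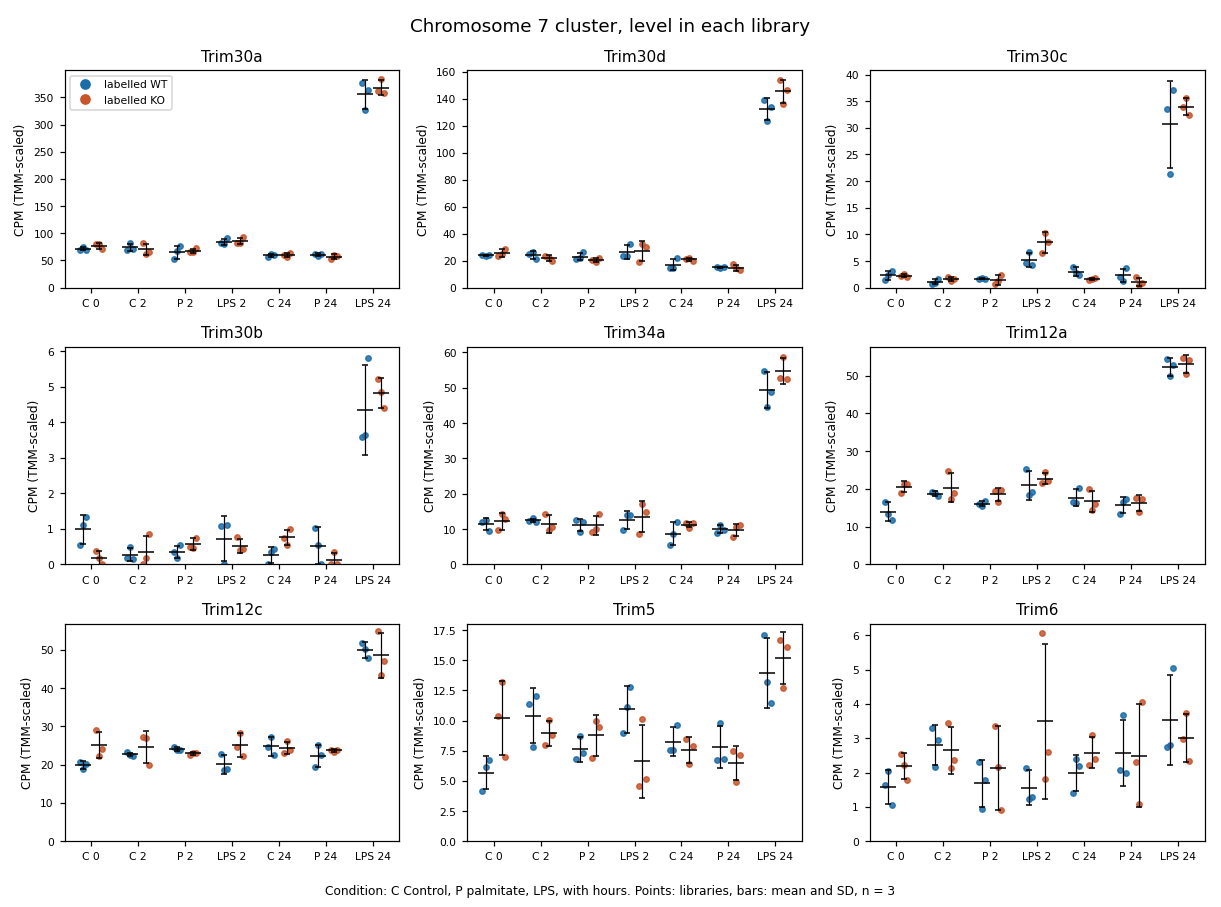
Level of the 9 cluster genes (y axis, TMM-scaled CPM) in each library by condition (x axis, C Control, P palmitate, LPS, with hours), for libraries labelled WT and KO. Points are libraries and bars the mean and SD (n = 3), and in the LPS 24 h columns Trim30a reaches 326 to 383 CPM.

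Outside the cluster, 6 Trim genes were called higher at 24 h in both genotypes. They were Trim14, Trim21, Trim25, Trim26, Trim8 and Trim56, all among the 9 immune members. Of the remaining immune members, Trim27 had 0.01 (WT) and 0.08 (KO) on the log2 scale, not called, and Trim65 and Trim68 are given below. Trim14, an adaptor that works with MAVS and lacks the RING, rose from 25.8, 20.1 and 24.9 to 70.0, 47.2 and 74.1 CPM and from 23.3, 26.2 and 27.9 to 67.8, 70.6 and 68.1 CPM. Its log2 fold changes were 1.44 ± 0.14 and 1.40 ± 0.14. Trim21 went from 23.6, 21.1 and 25.2 to 58.2, 61.6 and 57.7 CPM and from 24.3, 18.4 and 22.1 to 55.6, 66.3 and 58.1 CPM, or 1.34 ± 0.13 and 1.48 ± 0.13. Trim25 reached 369 to 384 CPM and 415 to 432 CPM from 152 to 159 and 152 to 162 CPM, a change of 1.29 ± 0.07 and 1.41 ± 0.07. Trim26 (0.45 and 0.54), Trim8 (0.21 and 0.36) and Trim56 (0.24 and 0.26) changed less. The calls of Trim56 were lost in 5 of 6 (WT) and 4 of 6 (KO) fits that left out a library, and that of Trim8 in WT libraries in 3 of 6. Trim65 was called higher in the WT libraries alone (0.42, lost in 3 of 6), and Trim13 and Trim41 in the KO libraries alone (0.79, lost in 2 of 6, and 0.27, lost in 4 of 6).

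Among the genes that fell at 24 h, Trim47 went from 21.9, 17.1 and 24.8 to 5.82, 7.61 and 6.43 CPM in the WT libraries and from 19.6, 16.2 and 14 to 2.83, 7.84 and 5.12 CPM in the KO libraries. Its log2 fold changes were −1.68 ± 0.21 and −1.67 ± 0.22, the largest fall called in both genotypes. Trim16 fell by 1.03 and 1.19, from 8.42, 11.7 and 9.91 to 3.59, 7.28 and 3.98 CPM and from 8.19, 10.4 and 13.6 to 3.28, 5.42 and 5.71 CPM. Trim37, a ligase of peroxisomes and centrioles, fell by 0.64 and 0.74, from 38.7, 35.3 and 40.6 to 25.3, 24.2 and 24.3 CPM and from 42, 34.1 and 36.7 to 21.6, 23.7 and 22.1 CPM. Trim59, a transmembrane member, fell from 3.65, 5.31 and 5.24 to 2.05, 3.81 and 0.612 CPM and from 7.95, 3.28 and 5.24 to 2.83, 2.24 and 1.32 CPM. In the WT libraries these groups overlap, and the call (−1.17 ± 0.35) was lost without LPS library 3. Trim62 (−0.96) was called in the WT libraries alone and Trim68 (−1.44, lost in 2 of 6 fits that left out a library) in the KO libraries alone.

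Of the 3 chromatin members, 2 were called lower in the WT libraries and 1 in the KO libraries. Trim24, a bromodomain cofactor of nuclear receptors, went from 18.5, 17.8 and 16.9 to 13, 8.11 and 12.6 CPM in the WT libraries (−0.65 ± 0.16) and from 18.9, 18.4 and 16.3 to 12.5, 15.5 and 12.7 CPM in the KO libraries (−0.39 ± 0.16, lost in 4 of 6 fits that left out a library). Trim28 had 122, 133 and 119 and then 98.2, 119 and 104 CPM in the WT libraries (−0.22 ± 0.08, lost in 3 of 6), with less than 1 CPM between the groups, and 122, 112 and 118 and then 119, 110 and 115 CPM in the KO libraries (−0.03, not called). Trim33, the TIF1 member that takes part in TGF-beta signalling, was called in no comparison, with 40.5 to 62.2 CPM over all libraries. Trim44 (75.7 to 96.5 CPM), Trim23 (9.11 to 19 CPM), Trim6 and Trim45 (0.196 to 3.39 CPM) were also called in none of the 25 comparisons. A further 7 genes were called in no comparison of LPS with Control, namely Trim35, Trim27, Trim3, Trim11, Trim39, Trim2 and Trim46.

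Summed over the 39 genes, the family took 1353 ± 7.27 CPM (SD, n = 3) in WT Control 24 h libraries and 2220 ± 43.6 CPM after LPS for 24 h, and 1369 ± 19.5 and 2378 ± 26.1 CPM in the KO libraries. The cluster made up 10.4 ± 0.754% of that sum in the WT Control libraries and 31.2 ± 1.86% after LPS, and 10.7 ± 0.233% and 30.6 ± 0.495% in the KO libraries. In the other 10 groups its share was 9.80 to 13.2%.

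**Figure D3:**
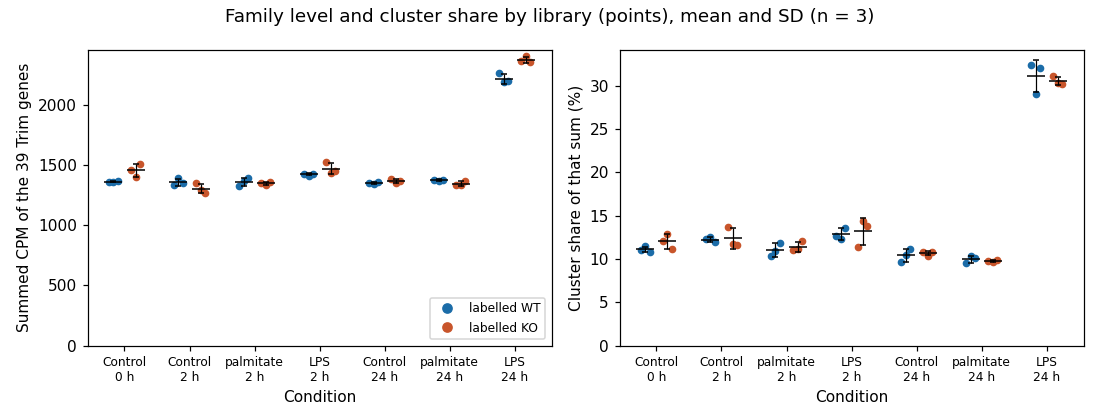
Summed level of the 39 Trim genes (left, CPM) and the share of the chromosome 7 cluster in that sum (right, percent) by condition (x axis), with libraries as points and the mean and SD (n = 3). The LPS 24 h groups reach 2220 and 2378 CPM and a share of 31.2% and 30.6%, above every other group.

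Other gene lists moved over the same libraries. The macrophage list summed to 4918 to 5078 CPM in Control 24 h libraries and to 7682 to 8747 CPM after LPS for 24 h, with no member at 0. Of its 6 genes 4 were called higher and 2 lower in each genotype. The granulocyte list summed to 58.7 to 219 CPM and then to 331 to 451 CPM, a sum that Lcn2 carried. Of its 6 genes tested 1 was higher and 3 lower in the WT libraries (median log2 fold change −1.07), and 1 was higher and 4 lower in the KO libraries (−1.39). The B cell list, mostly Cd22, the 1 gene of it tested, summed to 24.2 to 35.5 CPM and then to 41.2 to 58.6 CPM. Whether they contribute to the Trim results was not tested. In the pathway itself, of 11 genes of RIG-I and STING signalling 7 were higher and 1 lower at 2 h in each genotype, and 10 (WT) and 9 (KO) were higher at 24 h. Of 7 genes of the interferon receptor and the ISGF3 complex 6 and 7 were higher at 2 h and 6 and 5 at 24 h. Of 5 genes of the ISG15 system 4 and 5 were higher at 2 h and all 5 at 24 h, with a median of 3.11 and 3.19 on the log2 scale. Of 11 ubiquitin E1 and E2 partners 2 and 4 were higher at 2 h, and 2 and 1 higher with 1 lower in each at 24 h. Of all genes tested 14% (WT) and 14.7% (KO) were higher at 2 h, and 9.10% and 9.16% lower. At 24 h these shares were 19.6% and 19.9% higher, and 19.9% and 21% lower. The E1 and E2 counts higher at 24 h were not far from them.

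Of the family members that carry other names, 3 of 4 were tested. Mefv, the inflammasome sensor pyrin, rose at both times (log2 2.79 and 3.08 at 2 h, 2.27 and 2.33 at 24 h, WT and KO). Pml, the scaffold of nuclear bodies, was lower at 2 h in the WT libraries (−0.34) and had 0.07 in the KO libraries, and rose at 24 h by 1.61 and 1.64. Mid1, a microtubule-bound member, had 0.16 and −0.13 at 2 h and rose at 24 h by 0.91 and 0.73.

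The time course of the LPS response differed between genes, which the test of the 24 h response minus the 2 h response over both genotypes showed directly. It called 18 Trim genes with a larger and 6 with a smaller value at 24 h (46.2% and 15.4%, against 21.7% and 24.5% of all genes). Trim30d (2.60 ± 0.14), Trim30a (2.34 ± 0.09), Trim34a (2.18 ± 0.20), Trim14 (1.54 ± 0.15), Trim12a (1.46 ± 0.14) and Trim12c (1.08 ± 0.13) were late. Trim65 (1.54 ± 0.16) fell at 2 h. At 24 h it had 0.42 in the WT libraries, a call lost in 3 of 6 fits that left out a library. In the KO libraries it had 0.07, not called, with libraries that overlap Control. Trim36 (−2.94 ± 0.28) and Trim13 (−1.80 ± 0.25) were early, with Trim36 at 4.79, 3.81 and 4.13 CPM in the WT LPS 24 h libraries against 5.33, 5.83 and 6.41 CPM in their Controls. Trim8 changed sign, below Control at 2 h and above it at 24 h, with a difference of 0.67 ± 0.08.

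**Figure D4:**
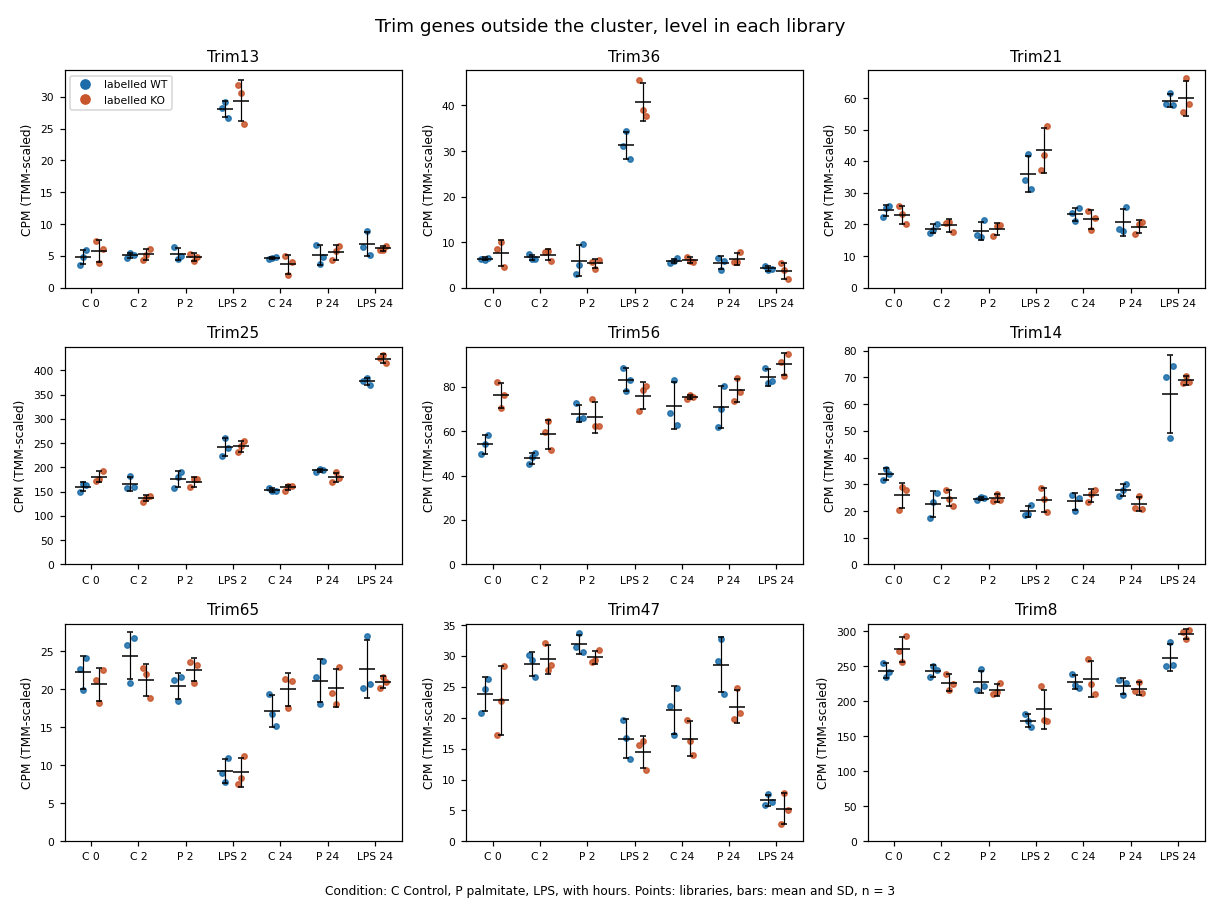
Level (y axis, TMM-scaled CPM) of Trim13, Trim36, Trim21, Trim25, Trim56, Trim14, Trim65, Trim47 and Trim8 in each library by condition (x axis), with the mean and SD (n = 3). Trim13 and Trim36 stand high in the LPS 2 h column (25.7 to 31.9 and 28.2 to 45.6 CPM), and Trim14 in the LPS 24 h column.

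Under palmitate few Trim genes were called. Each of the 3 calls concerned Trim25 or Trim56, and none was made at 24 h in libraries labelled KO. Trim56 had 45.1, 48.1 and 50.1 CPM in WT Control 2 h libraries and 72.5, 65.4 and 65.8 CPM after palmitate, log2 0.50 ± 0.10 (adjusted p = 0.00751), with no overlap. This was 1 gene higher and 0 lower of 39, where 0.103% of all genes were called higher and 0.172% lower, and the call was lost in 3 of 6 fits that left out a library. In the KO libraries at 2 h Trim25 had 130, 138 and 142 CPM against 159, 175 and 176 CPM after palmitate (0.32 ± 0.07, adjusted p = 0.0299, lost in 5 of 6), where 0.0774% of all genes passed the test upward and 0.0344% downward. At 24 h Trim25 had 159, 152 and 152 CPM in WT Control libraries and 192, 197 and 194 CPM after palmitate (0.34 ± 0.07, adjusted p = 0.00364), and this call was kept in each of the 6 fits. There 0.671% of all genes were higher and 0.181% lower. In the KO libraries at 24 h, 0 Trim genes passed edgeR's adjusted threshold, 6 had an unadjusted p under 0.05 and DESeq2 called 0 (2 genes had no adjusted p there), while 0.637% of all genes passed upward and 0.241% downward.

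LPS and palmitate were also compared with each other at each time. At 2 h 10 Trim genes were higher and 10 lower with LPS (19.2% and 15.7% of all genes), and at 24 h 20 were higher and 7 lower (25.4% and 26.4%). Large differences at 24 h were those of Trim30c (4.31 ± 0.22) and Trim30d (3.21 ± 0.09) on the log2 scale, and in the other direction Trim47 (−2.09 ± 0.15). Trim30b was also called higher, but it had 0 to 6 counts in the palmitate 24 h libraries against 21 to 38 with LPS, so no fold is given. At 2 h they were Trim36 (2.67 ± 0.18), Trim13 (2.50 ± 0.16) and, lower, Trim16 (−1.50 ± 0.20). These values share the LPS libraries with the comparisons above.

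Control cells changed with time in culture. From 0 to 2 h 8 Trim genes were lower (20.5%) and 1 higher (2.56%), against 7.36% and 9.35% of all genes. The lower genes were Trim25 (−0.17), Trim28 (−0.15), Trim56 (−0.28), Trim27 (−0.33), Trim41 (−0.31), Trim14 (−0.32), Trim21 (−0.31) and Trim16 (−0.57), and the higher one Trim62 (0.86 ± 0.17). The calls of Trim28, Trim21 and Trim14 were lost in 10, 7 and 6 of 12 fits that left out a library. From 0 to 24 h Trim8 (−0.17), Trim30a (−0.31) and Trim30d (−0.38) were lower and Trim56 (0.19) and Trim62 (0.53) higher, where 7.90% of all genes were higher and 8.62% lower. The calls of Trim56, Trim62 and Trim8 were lost in 8, 7 and 4 of 12 such fits.

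Between genotypes the Trim genes differed mainly in Control cells at 0 h, where 6 of 39 were called (15.4%, close to the 12.5% of all genes). With the label KO 5 of them were higher and 1 was lower. Trim56 had 49.8, 54.2 and 58.2 CPM in the WT libraries and 81.9, 70.5 and 76.1 CPM in the KO libraries (log2 0.49 ± 0.10, adjusted p = 0.000414). Trim12a had 16.6, 13.4 and 11.8 against 18.8, 21.4 and 21.4 CPM (0.57 ± 0.15). Trim3, an NHL-domain ligase, had 21.5, 21.5 and 20.1 against 29.2, 26.4 and 38.9 CPM (0.58 ± 0.16). Trim5 had 4.16, 6.16 and 6.75 against 10.4, 13.2 and 7.02 CPM (0.82 ± 0.25). In each of these 4 genes the groups did not overlap, but the genes were taken by their call, so this adds no support. The share of all genes without overlap was not computed. Trim11 (0.58) and Trim35 (−0.25) were also called. Leaving out a library ended the Trim35 and Trim11 calls in 4 of 6 fits each, that of Trim5 in 3, that of Trim3 in 2 and that of Trim12a in 1 (without WT library 3, adjusted p = 0.0752). In the same libraries fibroblast genes, mainly Col1a1, Col1a2 and Col3a1, summed to 42.1 to 69.3 CPM with the label KO and 0.529 to 0.905 CPM with the label WT. Of the 6 macrophage genes 1 was higher and 3 were lower with the label KO (median log2 difference −0.06). The part of these lists in the difference was not tested.

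**Figure D5:**
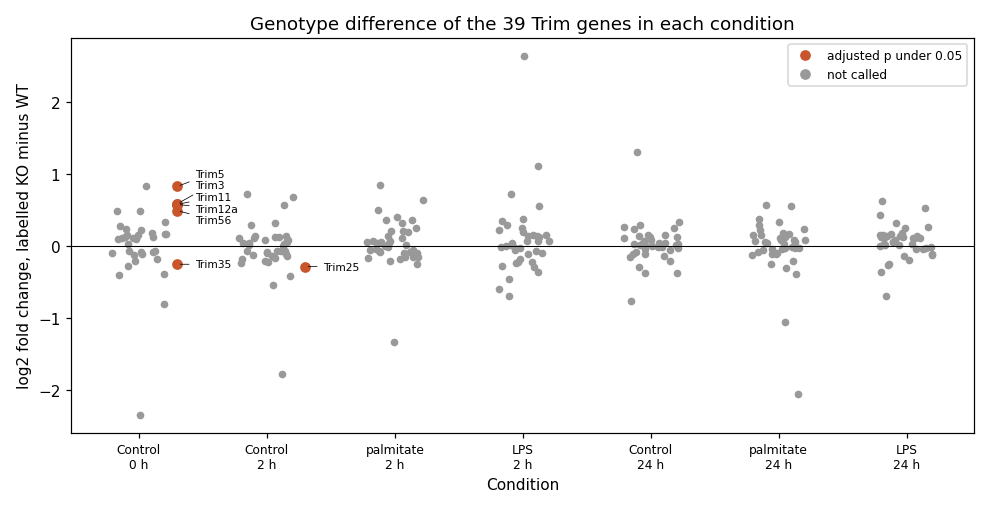
Log2 difference, libraries labelled KO minus WT (y axis), of each of the 39 Trim genes in the 7 conditions (x axis), from the edgeR fit, with called genes named. Named genes stand at Control 0 h (Trim5 highest, 0.82) and Control 2 h (Trim25, −0.29), and none in the other 5 conditions.

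At Control 2 h 1 gene was called, Trim25, lower in the libraries labelled KO with 157, 183 and 160 against 130, 138 and 142 CPM (−0.29 ± 0.07, adjusted p = 0.0367, 0.490% of all genes called), a call lost in 5 of 6 fits that left out a library. The palmitate 2 h call of Trim25 above uses the same KO Control libraries. Their mean of 137 CPM was the lowest of the 14 groups, so the calls are not separate results. In the other 5 conditions edgeR called 0 Trim genes. DESeq2 also called 0, but its filter gave no adjusted p to 25 of the 39 genes with palmitate 2 h, 29 with LPS 24 h and 6 with LPS 2 h. In edgeR the number with an unadjusted p under 0.05 was 1 with palmitate 2 h, 5 with LPS 2 h, 1 in Control 24 h, 4 with palmitate 24 h and 3 with LPS 24 h. Of all genes 0.146%, 0.465%, 0.120%, 0.0688% and 0.146% were called in these conditions. Over the mean of the 7 conditions Trim56 was higher in the KO libraries (0.14 ± 0.04, adjusted p = 0.01), where 11.4% of all genes were called. Its difference was not in 1 direction throughout, with KO means below the WT means under palmitate 2 h (66.1 and 67.9 CPM) and LPS 2 h (75.9 and 83.2 CPM). Markers of other cells moved with the label as well. All 6 granulocyte genes tested were higher in the KO libraries on the mean of the 7 conditions (median log2 difference 1.15), 5 of them at Control 2 h (1.75) and 1 at Control 0 h (0.56). All 3 fibroblast genes tested were higher on that mean (3.94). They were called at Control 0 h and in no other single condition, with a median of 0.11 under palmitate 24 h. Of the 6 macrophage genes 1 was higher and 2 were lower on that mean. The part of these lists in the Trim differences was not tested. Trim24, the member nearest to Irf5 on chromosome 6 at 8.33 Mb, differed by −0.29 to 0.27 and Trim28 by −0.12 to 0.13 over the comparisons between labels, with no call.

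The response of the Trim genes to LPS or palmitate did not differ detectably between the genotypes. In the test of the interaction, edgeR and DESeq2 each called 0 of 39 genes for LPS at 2 h, LPS at 24 h, palmitate at 2 h and palmitate at 24 h. With an unadjusted p under 0.05 there were 3, 0, 4 and 3 genes, and 0.00%, 0.00860%, 0.00% and 0.00% of all genes were called. With 3 libraries a group this says that no difference passed the threshold, not that the responses were equal.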

How the data were processed

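The authors prepared ribodepleted, stranded total RNA libraries (SMARTer Pico) of BMDMs, sequenced them paired-end, and deposited raw counts per Ensembl gene. Per the labels' processing notes fastp 0.19.11 and STAR 2.7.3a were used, with mm10 (mm9 is also named). The annotation release and strand setting of the counting are not given in the sources used here. The table holds 37310 rows, all 42 columns were used, and the columns name the group but no library number, so libraries 1 to 3 of a group follow column order and pair nothing across groups. Genes were named and placed with the GENCODE annotation of mm10.

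Counts were scaled by TMM, filtered with filterByExpr to 11624 genes and fitted in 1 model of the 14 groups with edgeR 4.0.16 (R 4.3.3), by the quasi-likelihood test with Benjamini-Hochberg adjustment over all genes tested. Calls needed an adjusted p below 0.05. SE is the absolute log2 fold change divided by the square root of F, and CPM are TMM-scaled. The code was tested on simulated counts. DESeq2 1.42.0, RLE size factors, no low-count filter, fits to the compared libraries alone, and fits without each library were alternatives, and fits without the Control 0 h libraries were added after seeing the data.

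Every member was accounted for. Members called in the same direction in both genotypes under LPS, at a mean of at least 1 CPM, were given by library (at most 8 per direction and time, by mean log2 fold change), as were called members under palmitate and between genotypes (at most 4 per comparison) and Trim24 and Trim28. The members and lists were chosen with earlier results of these data known. Replicates of a group differed by more than sampling noise, so none was counted as a duplicate. Total counts of 2848793 to 7743442 per library set the precision, and the lowest genes rest on few counts.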

Additional observations from a re-analysis of the deposited data

Results flagged for a closer look

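For 24 Trim genes the response to LPS at 24 h differed from that at 2 h over both genotypes, by edgeR's test of the difference (adjusted p under 0.05 over all genes tested). Groups of 3 libraries are too small for a test of single outlying samples, and no difference in response between genotypes passed the threshold. In the cluster the difference on the log2 scale was 2.60 for Trim30d, 2.34 for Trim30a, 2.31 for Trim30b, 2.18 for Trim34a, 1.55 for Trim30c, 1.46 for Trim12a, 1.08 for Trim12c and 1.01 for Trim5. Other genes with a higher value at 24 h were Trim46 (2.34, on few counts), Trim14 (1.54), Trim65 (1.54), Trim8 (0.67), Trim25 (0.66), Trim11 (0.51), Trim3 (0.50), Trim32 (0.47), Trim21 (0.36) and Trim41 (0.33). Genes with a lower value at 24 h were Trim36 (−2.94), Trim13 (−1.80), Trim68 (−1.12), Trim47 (−0.75), Trim37 (−0.58) and Trim56 (−0.34). The Trim68 difference was lost in 14 of 24 fits that left out a library, that of Trim21 in 5, that of Trim46 in 4 and that of Trim30b in 3.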

How the results depend on the processing

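Of the 166 calls made for the Trim genes over the 25 comparisons none changed direction under any alternative run. The call was kept for 165 with RLE size factors, 164 with DESeq2, 152 without the low-count filter, 156 in fits to the compared libraries alone, and all 145 that could be fitted without the Control 0 h libraries. Over the fits that left out a library 1655 calls were kept and 175 lost, and 48 calls were lost at least once. The number of Trim genes called moved by over 1.5 times outside these fits in 1 comparison, the mean genotype difference over 7 conditions, with 1 in the main test and 2 both without the low-count filter and with DESeq2, the second being Trim47 (lower in libraries labelled KO). Leaving out a library gave 0 to 1 genes under palmitate 2 h in each genotype, 3 to 4 for the genotype difference at Control 0 h (6 with all libraries), 0 to 1 at Control 2 h, 1 to 3 for the mean over conditions and 2 to 7 for Control 24 h against 0 h (5). It gave 12 for LPS 2 h in the WT libraries, 13 to 15 in the KO libraries, and 19 to 21 and 18 to 21 for LPS 24 h. No paired analysis was possible because the columns carry no replicate numbers. Depth limits the lowest genes, such as Trim30b, Trim45 and Trim46.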
